A study of Homo sapiens with 6 samples.

Results

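The 10 genes described here encode transcription factors of the immediate early response: FOS, FOSB, JUN, JUNB and JUND of the AP-1 family, EGR1, EGR2 and EGR3 of the zinc finger EGR family, and NR4A1 and NR4A3 of the NR4A family of orphan nuclear receptors. They were chosen by symbol, with earlier results of these libraries known, and all 10 were found among the 20667 gene symbols of each RNA-seq library. The libraries come from U2932, a cell line established from ABC-DLBCL, the activated B-cell subtype of diffuse large B-cell lymphoma. Cells were infected with a lentiviral pLKO.1 vector that carried either an shRNA against ROCK2 (ROCK2 KD) or, as control, a scrambled sequence (Scr shRNA), and stable lines were obtained by sorting and puromycin selection. ROCK2 is a serine-threonine kinase downstream of the GTPase RhoA. The groups share the cell line, the vector with its tGFP and puromycin resistance cassettes, and growth in serum-containing Iscove's medium, and the labels name no stimulation of the cells in either group. Each group has 3 libraries, numbered as replicates 1, 2 and 3, and the ROCK2 KD libraries rest on 1 shRNA construct. The values are FPKM, the fragments of a gene corrected for its length and for the size of the library, so that levels can be compared between genes.

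Immediate early genes are transcribed within minutes of a signal from preformed factors, without new protein synthesis. FOS and JUN proteins dimerize into AP-1, while EGR proteins bind GC-rich sites and induce, among others, their own corepressor NAB2. In B cells, antigen receptor signalling through calcium and the ERK kinases is a well-known inducer of EGR and NR4A genes. Serum response factor (SRF), with either ERK-activated ELK proteins or actin-regulated MRTF proteins, drives several of these genes from a promoter element called the CArG box. The comparison of ROCK2 KD with Scr shRNA asks here how the mRNA levels of these factors stand in cells with less ROCK2.

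The promoters of EGR1, EGR2 and NR4A3 differ in the elements next to their start. These genes were higher in ROCK2 KD in every pair, as were NR4A1, whose windows held no match, and EGR3, which had no window. The promoters are shown with that of JUND, which had no common direction, for contrast. Capitals mark matches to any of the motifs searched on both strands: the cyclic AMP response element (CRE) TGACGTCA, its core TGACG, the AP-1 site TGANTCA, the EGR site GCGNGGGCG, the NR4A site AAAGGTCA (NBRE), the CArG box and the TATA box TATAAA. A CRE match always holds TGACG matches. Each sequence is the stretch of 250 bases before a RefSeq start, written 5′ to 3′ on the strand of the gene, taken from the GRCh38.p14 RefSeq promoter set and found unchanged at 1 place in GRCh37.
EGR1 (GRCh37 chr5:137800918-137801167, plus strand): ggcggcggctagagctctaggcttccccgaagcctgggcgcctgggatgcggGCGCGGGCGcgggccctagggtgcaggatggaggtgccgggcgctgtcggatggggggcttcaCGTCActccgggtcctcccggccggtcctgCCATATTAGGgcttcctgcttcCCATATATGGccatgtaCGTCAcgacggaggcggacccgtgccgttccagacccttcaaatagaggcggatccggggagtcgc
EGR2 (GRCh37 chr10:64576127-64576376, minus strand): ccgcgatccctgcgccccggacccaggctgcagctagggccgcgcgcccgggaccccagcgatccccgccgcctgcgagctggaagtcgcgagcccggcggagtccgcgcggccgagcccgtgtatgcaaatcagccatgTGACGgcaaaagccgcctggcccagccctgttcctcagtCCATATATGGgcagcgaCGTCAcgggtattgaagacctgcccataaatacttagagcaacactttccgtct
NR4A3 (GRCh37 chr9:102583917-102584166, plus strand): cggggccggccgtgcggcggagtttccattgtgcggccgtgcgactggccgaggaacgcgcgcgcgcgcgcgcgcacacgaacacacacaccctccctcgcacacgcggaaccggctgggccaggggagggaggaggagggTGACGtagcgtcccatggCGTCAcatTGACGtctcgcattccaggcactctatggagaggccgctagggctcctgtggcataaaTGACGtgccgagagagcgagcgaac
JUND (GRCh37 chr19:18392433-18392682, minus strand): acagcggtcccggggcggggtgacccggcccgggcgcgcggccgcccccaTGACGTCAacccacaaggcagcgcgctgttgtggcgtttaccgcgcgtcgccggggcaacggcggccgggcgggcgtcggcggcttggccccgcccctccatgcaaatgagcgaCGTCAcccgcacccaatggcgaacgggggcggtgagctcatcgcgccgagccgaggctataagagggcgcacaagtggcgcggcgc
The EGR1 stretch holds CArG boxes at bases -105 to -96 and -83 to -74 before the start, an EGR site at -198 to -190 and TGACG on the minus strand at -135 to -131 and -66 to -62. The EGR2 stretch, which lies before 1 of 3 RefSeq starts of the gene, holds a CArG box at -71 to -62 between TGACG matches at -110 to -106 and -54 to -50. NR4A3 has 4 TGACG matches, from -109 to -21, and no CArG box. JUND has the full CRE at -200 to -193 and a TGACG match at -86 to -82. The windows of 300 bases, 250 before and 50 after each start, covered 12 starts of 9 of the 10 genes, all but EGR3. A CArG box was found in 2 of the 12 windows and in 1.29% of 35093 windows of the RefSeq set. TGACG was found in 8 of the 12 windows, 1 for each matched gene other than NR4A1, and in 24.5% of the set. For NR4A1 the stretches before the starts searched end at 52416615 and 52431498, and any start further along the gene was not covered. The EGR site was present in 2 windows, of EGR1 and EGR2 (9.43% of the set), the CRE in 1 (1.85%), and TATAAA in 3, of FOS, FOSB and JUNB (11.5%). No window of these genes held the AP-1 site (7.71% of the set) or the NBRE (1.22%). A match says only that the letters are present, and no binding was measured.

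**Figure D1:**
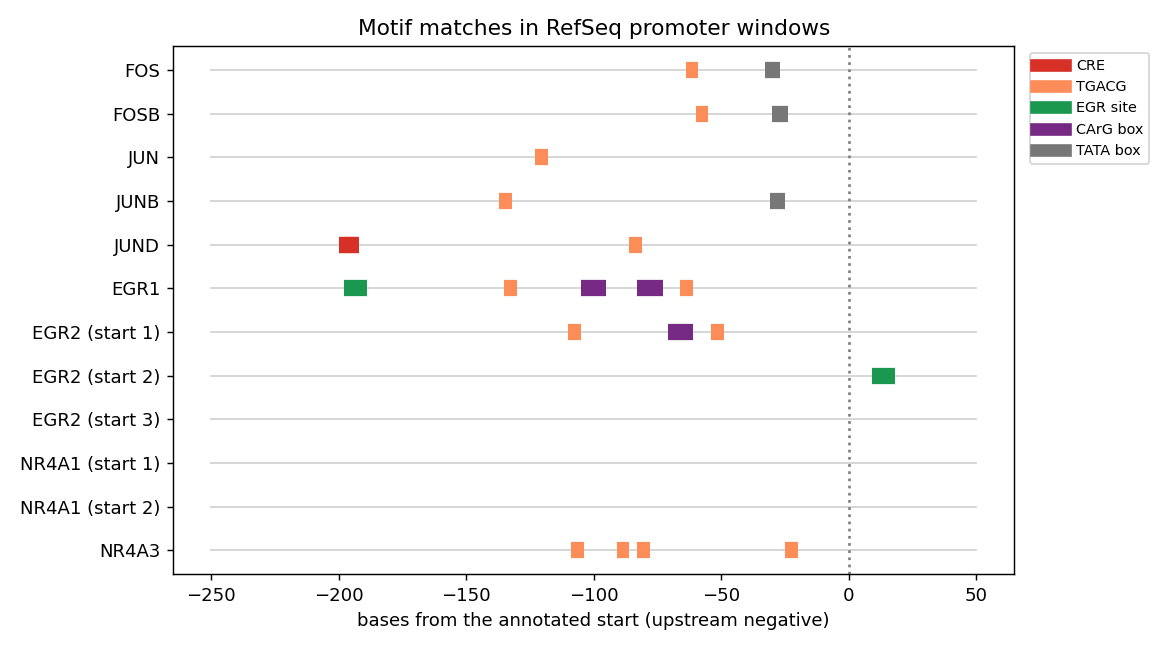
Motif matches in the RefSeq windows of 9 of the factors, drawn as coloured blocks along the distance in bases from each annotated start (dotted line at the start, upstream to the left). CArG boxes lie before EGR1 and before 1 start of EGR2, and TGACG matches lie in the windows of 8 of the 9 genes.

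The libraries were first checked as a whole. The summed FPKM was 217309 in ROCK2 KD and 208289 in Scr shRNA replicate 1, and 438262 to 480612 in the other libraries. ROCK2, on chromosome 2 of GRCh37 from 11319885 to 11488456, was at an FPKM of 2.75, 5.35 and 1.26 in ROCK2 KD replicates 1, 2 and 3 and of 4.32, 7.21 and 5.78 in the Scr shRNA replicates. It was lower in every pair, with a log2 fold change of -0.81 ± 0.23 (SE, limma adjusted p = 0.801), and the smallest decrease, -0.36 on the log2(scaled FPKM + 1) scale, was in replicate 2. Without replicate 3, which had the largest decrease, the log2 fold change was -0.44. ROCK1 was at a log2 fold change of 0.01 ± 0.10 (SE). The depth of the libraries is unknown in reads, but the steps between the smallest values put it between 71.4% and 92.7% of that of Scr shRNA replicate 3 in the other 5 libraries. Replicate numbers set the libraries apart more than the knockdown did: the replicate number passed an adjusted p of 0.05 for 57.5% of the 10526 genes tested, by a moderated F test chosen after the data had been seen. The B cell markers MS4A1, CD79A, CD79B, PAX5 and IRF4 were all tested, with summed scaled levels from 409 to 1295 in Scr shRNA and from 560.0 to 1255 in ROCK2 KD. Within each group, every one of these markers had its lowest FPKM in replicate 1. The summed level of 4 T cell markers lay between 1.27 and 5.19 in Scr shRNA and between 2.31 and 4.20 in ROCK2 KD, with CD247 the highest of the 4 in every library. CD3D was listed at 0 in 5 libraries and CD3G in 5, while CD3E was higher in ROCK2 KD in all 3 pairs (FPKM 0.758, 0.445 and 0.298 against 0.221, 0.176 and 0.0902). Myeloid markers summed to between 0.256 and 0.825 over all libraries, with S100A8 at 0 in each. EPCAM, the only epithelial marker with an FPKM over 1, averaged 3.83 ± 1.11 (SD, n = 3) with ROCK2 KD, where the Scr shRNA libraries averaged 3.58 ± 0.945 (SD, n = 3).

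To compare the groups, libraries were brought to a common scale with a trimmed mean of log ratios, and limma was run on log2(scaled FPKM + 1) with the replicate number as a block, over the genes that reached an FPKM of 1 in 3 or more libraries. In this fit 0% of the genes passed the adjusted threshold of 0.05, while 5.44% stood under an unadjusted p of 0.05, with 3.14% higher and 2.3% lower in ROCK2 KD. Of the 10 factors, 5 passed the filter: JUNB, JUND, EGR1, EGR2 and NR4A1. EGR2 passed with 2 ROCK2 KD libraries and 1 Scr shRNA library at an FPKM of at least 1, so that its place among the tested genes leaned on the group where it was higher. FOS, FOSB, JUN, EGR3 and NR4A3 were below the filter, and their values come from the fit on all genes above 0 in at least 1 library. In 3 pairs, no exact permutation test of a single gene can give a p below 0.25.

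EGR1, EGR2, EGR3, NR4A1 and NR4A3 were each higher in ROCK2 KD than in Scr shRNA within all 3 replicate numbers, while the AP-1 genes had no such common direction. These 5 of 10 compare with 12.8% of the 14324 genes above 0 in every library that were higher in all 3 pairs. Among genes with a mean level within the range of the factors, the share was 12.4%. The factors were chosen with earlier results of these libraries known, so a count above these shares adds no independent support. Of the 10 factors, only JUN was lower in all 3 pairs, a pattern shared by 12.7% of genes above 0 in every library. None of the 5 tested factors passed an adjusted p of 0.05. Their median log2 fold change was 0.58, and the median over all tested genes was 0.00. The median of the factors was 0.12 without replicate 2 and -0.03 over the 3 factors left when an FPKM of at least 1 was required in every library. Over all 10 factors, in the fit without a filter, it was 0.41.

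**Figure D2:**
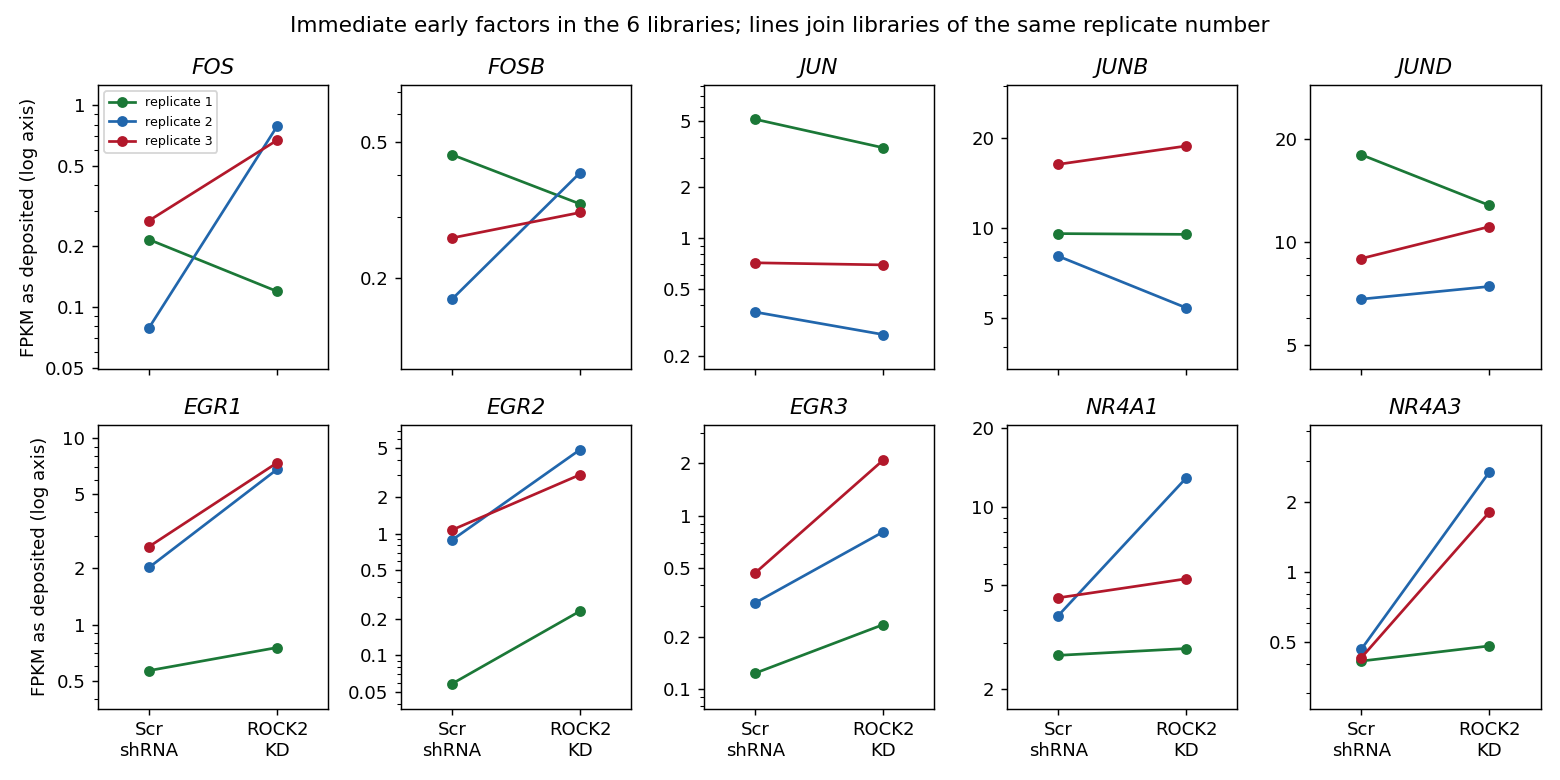
FPKM of each of the 10 factors (log axis, a different range in each panel) in the Scr shRNA and ROCK2 KD libraries, with a line joining libraries of the same replicate number. All lines of the EGR and NR4A genes slope upward to ROCK2 KD, and replicate 1 lies lowest for the EGR genes and highest for JUN and JUND.

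EGR1 is the prototype of the EGR family and an early readout of ERK and antigen receptor signalling. Its FPKM was 0.753, 6.82 and 7.40 in ROCK2 KD replicates 1, 2 and 3 and 0.566, 2.03 and 2.62 in the Scr shRNA replicates. The groups overlapped because replicate 1 was low in both, and within each replicate the ROCK2 KD library was the higher. The ratio of scaled FPKM, given as log2, was 0.41, 1.76 and 1.47 in the 3 pairs, a geometric mean of 2.32-fold. In the fit its log2 fold change was 0.90 ± 0.22 (SE, 95% confidence interval 0.37 to 1.42, limma adjusted p = 0.791). It ranked 14 of 10526 genes in order of decreasing log2 fold change. Without replicate 1 the log2 fold change was 1.25 and the adjusted p from limma was 0.0767. The log2 fold change was 0.68 without replicate 2 (limma adjusted p = 0.836) and 0.76 without replicate 3 (limma adjusted p = 0.999). EGR1 lies on the plus strand of chromosome 5 of GRCh37 from 137801168 to 137804992, and no other annotated gene shares its exons.

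EGR2 and EGR3 restrain or shape lymphocyte activation alongside EGR1. EGR2 was at an FPKM of 0.232, 4.90 and 3.05 in ROCK2 KD and of 0.0586, 0.886 and 1.07 in Scr shRNA replicates 1, 2 and 3. Every pair showed the ROCK2 KD library higher, by 1.98, 2.47 and 1.49 on the log2 scale of scaled FPKM, and this geometric mean of 3.95-fold (SD of the log2 ratios 0.49, n = 3 pairs) was the highest of the 10 factors. The ratio in replicate 1 rests on values far below an FPKM of 1, and on the log2(scaled FPKM + 1) scale that pair differed by 0.27. The log2 fold change in the fit was 0.92 ± 0.23 (SE, 95% confidence interval 0.38 to 1.47, limma adjusted p = 0.791), rank 12 of 10526. With a pseudocount of 0.1 in place of 1 it was 1.64, and without replicate 2 it was 0.59. EGR2 lies on chromosome 10 of GRCh37 from 64571756 to 64578927, and 145 of its 3707 exon bases are shared with a long noncoding RNA on the same strand.

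EGR3, whose FPKM reached 1 in a single library, was at 0.235, 0.807 and 2.09 in ROCK2 KD and at 0.123, 0.314 and 0.467 in Scr shRNA. All 3 pairs had the higher value in ROCK2 KD, with log2 ratios of 0.93, 1.37 and 2.14 and a geometric mean of 2.79-fold. In the fit without a filter its log2 fold change was 0.53 ± 0.19 (SE, limma adjusted p = 0.911), and in that fit 2.11% of 18785 genes were higher with an unadjusted p under 0.05. With a pseudocount of 0.1 in that fit it was 1.22. EGR3 lies on chromosome 8 from 22545172 to 22550993, and 164 of its 5033 exon bases are shared with a long noncoding RNA on the opposite strand.

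EGR1 made up most of the EGR mRNA in each library. Its share of the summed FPKM of the 3 genes was 61.7%, 54.4% and 59.0% in ROCK2 KD and 75.7%, 62.8% and 63.0% in Scr shRNA. The highest ROCK2 KD share and the lowest Scr shRNA share lay close together, and in replicate 1 the EGR2 and EGR3 values behind the shares were far below an FPKM of 1. The summed scaled level of the family was 1.55, 10.8 and 11.3 in ROCK2 KD replicates 1, 2 and 3 against 0.952, 2.78 and 3.82 in Scr shRNA.

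The NR4A receptors need no known ligand and act as early response factors and brakes of lymphocyte activation. NR4A1 (Nur77) was at an FPKM of 2.86, 12.9 and 5.28 in ROCK2 KD and of 2.69, 3.81 and 4.47 in Scr shRNA. It was higher in each pair, but the differences were unequal, with log2 ratios of 0.09, 1.76 and 0.22. The log2 fold change was 0.58 ± 0.27 (SE, 95% confidence interval -0.05 to 1.22, limma adjusted p = 0.930). It rested on replicate 2: without that pair the log2 fold change was 0.12. NR4A1 lies on chromosome 12 of GRCh37 from 52416616 to 52453291, and 754 of its 7295 exon bases are shared with NR4A1AS on the opposite strand, whose reads cannot be told apart where strand was not used.

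NR4A3 (NOR1) was the only 1 of the 10 factors whose groups did not overlap. Its FPKM was 0.479, 2.67 and 1.80 in ROCK2 KD and 0.413, 0.463 and 0.426 in Scr shRNA, and a separation in this direction was seen for 1.02% of the genes above 0 in every library. The Scr shRNA libraries were close together, and the ROCK2 KD library of replicate 1 stood just above them. The log2 ratios were 0.22, 2.54 and 2.06, a geometric mean of 3.04-fold. In the fit without a filter the log2 fold change was 0.75 ± 0.26 (SE, limma adjusted p = 0.911), and with a pseudocount of 0.1 in that fit it was 1.42. The share of NR4A3 in the summed FPKM of NR4A1 and NR4A3 was 14.4%, 17.2% and 25.4% in ROCK2 KD and 13.3%, 10.8% and 8.71% in Scr shRNA. NR4A3 lies on chromosome 9 from 102584137 to 102629173.

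**Figure D3:**
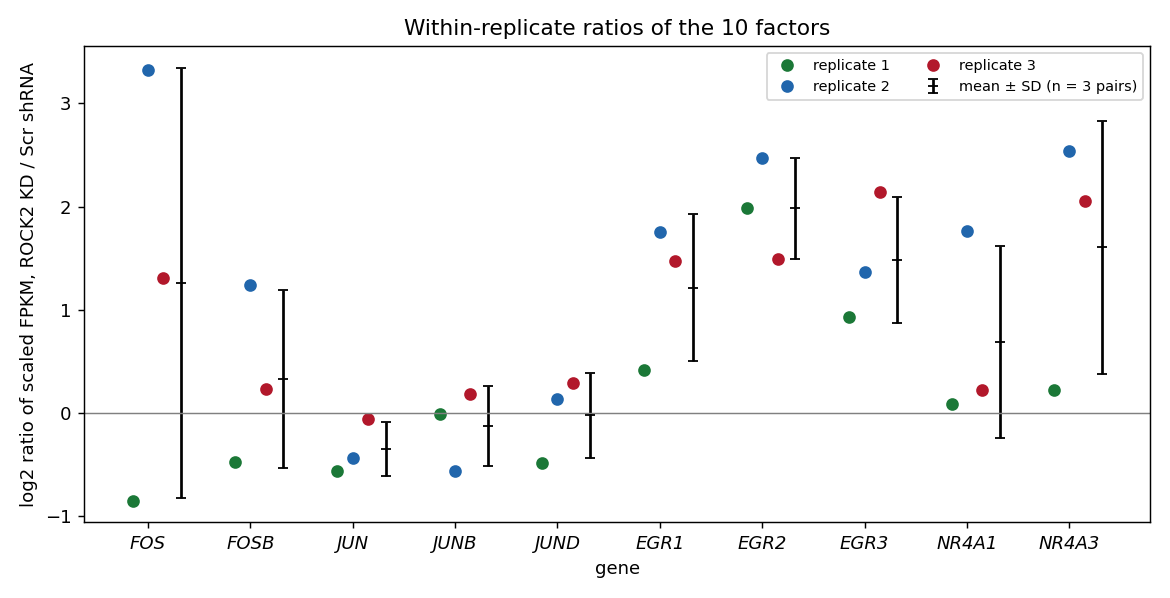
Ratio of scaled FPKM in ROCK2 KD to that in Scr shRNA, as log2 and without a pseudocount, for each factor and replicate number (coloured points), with the mean ± SD over 3 pairs (black). The EGR and NR4A points all lie above 0, from 0.09 for NR4A1 in replicate 1 to 2.54 for NR4A3 in replicate 2, and those of FOS spread from -0.85 to 3.33.

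FOS, the classic partner of JUN in AP-1, was the lowest of the 10 factors in Scr shRNA. Its FPKM was 0.119, 0.786 and 0.670 in ROCK2 KD and 0.215, 0.0789 and 0.268 in Scr shRNA. Replicates 2 and 3 were higher in ROCK2 KD and replicate 1 was lower, with log2 ratios of 3.33, 1.30 and -0.85. The SD of these ratios, 2.09, exceeded their mean of 1.26, and the log2 fold change in the fit without a filter was 0.29 ± 0.17 (SE, limma adjusted p = 0.911). FOSB had the same signs at a low level, at an FPKM of 0.328, 0.406 and 0.310 in ROCK2 KD and 0.458, 0.173 and 0.261 in Scr shRNA. Its log2 ratios were -0.48, 1.24 and 0.23. FOS lies on chromosome 14 from 75745529 to 75748933 and FOSB on chromosome 19 from 45971253 to 45978437.

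The JUN genes held most of the AP-1 mRNA. For JUNB and JUND the pairs went both ways, with log2 ratios of scaled FPKM of -0.01, -0.57 and 0.18 and of -0.49, 0.13 and 0.29 in replicates 1, 2 and 3. JUND, the member that resting cells commonly express, was at an FPKM of 12.8, 7.40 and 11.1 in ROCK2 KD and of 18.0, 6.80 and 8.94 in Scr shRNA. Its log2 fold change was -0.03 ± 0.16 (SE, 95% confidence interval -0.40 to 0.34, limma adjusted p = 0.996), and replicate 1 was lower in ROCK2 KD while replicates 2 and 3 were higher. JUNB, which can oppose JUN at some promoters, was at 9.55, 5.43 and 18.9 in ROCK2 KD and 9.61, 8.08 and 16.4 in Scr shRNA. It was level in replicate 1, lower in replicate 2 and higher in replicate 3, with a log2 fold change of -0.11 ± 0.15 (SE, 95% confidence interval -0.45 to 0.24, limma adjusted p = 0.979). Of the 1830 exon bases of JUNB, 259 are shared with HOOK2 on the opposite strand. JUNB spans 12902300 to 12904129 and JUND 18390504 to 18392432 on chromosome 19.

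JUN was at an FPKM of 3.44, 0.267 and 0.692 in ROCK2 KD and of 5.09, 0.363 and 0.713 in Scr shRNA. The ROCK2 KD library was the lower in each pair, with log2 ratios of -0.56, -0.44 and -0.06, and the log2 fold change in the fit without a filter was -0.20 ± 0.13 (SE, limma adjusted p = 0.911). Replicate 1 was far above the others in both groups. JUN made up 13.4% and 15.6% of the summed FPKM of JUN, JUNB and JUND in replicate 1 of ROCK2 KD and Scr shRNA, and between 2.04% and 2.74% in the other 4 libraries. JUN lies on chromosome 1 from 59242517 to 59249720.

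The order of the levels in Scr shRNA was JUND, JUNB, NR4A1, JUN, EGR1, EGR2, NR4A3, FOSB, EGR3 and FOS, from a mean scaled FPKM of 12.3 ± 9.23 (SD, n = 3) to 0.196 ± 0.112 (SD, n = 3). Only the steps from JUNB to NR4A1 and from EGR1 to EGR2 exceeded the larger SD of the neighbours, at 1.90 and 1.20 times that SD. In ROCK2 KD the order was JUNB, JUND, NR4A1, EGR1, EGR2, JUN, NR4A3, EGR3, FOS and FOSB, and no step exceeded the larger SD. EGR1 stood above 47.5% of the genes above 0 in any library by its mean level in Scr shRNA, and above 60.0% in ROCK2 KD.

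For most factors the replicate numbers accounted for more of the variation than the knockdown. There are more replicate numbers than groups, so the replicate share tends to be the larger even without any effect. In log2(scaled FPKM + 0.1), the share of the sum of squares between replicate numbers was 98.8% for JUN, 94.3% for JUND and 93.1% for JUNB, with at most 0.994% between the groups. For EGR1, EGR2 and EGR3 it was 67.9%, 70.7% and 51.7%, with 25.8%, 26.8% and 40.7% between the groups. NR4A3, at 11.2% between replicate numbers and 63.6% between the groups, had the larger share between the groups. For NR4A1, at 28.0% and 32.5%, and FOS, at 13.4% and 32.8%, the remainder was the largest share, 39.6% and 53.8%. Averaged over both groups, the highest replicate exceeded the lowest by 19.97-fold for JUN, highest in replicate 1, and by 13.5-fold for EGR2, lowest in replicate 1. The replicate number passed the moderated F test for JUNB, JUND, EGR1 and EGR2, with adjusted p values from 0.00196 to 0.0102 from limma, but not for NR4A1 (adjusted p = 0.241). ATF3, a stress-induced partner of JUN, shared the high level in replicate 1, at an FPKM of 20.6 and 31.0 in ROCK2 KD and Scr shRNA against 1.12 to 2.85 in the other 4 libraries.

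**Figure D4:**
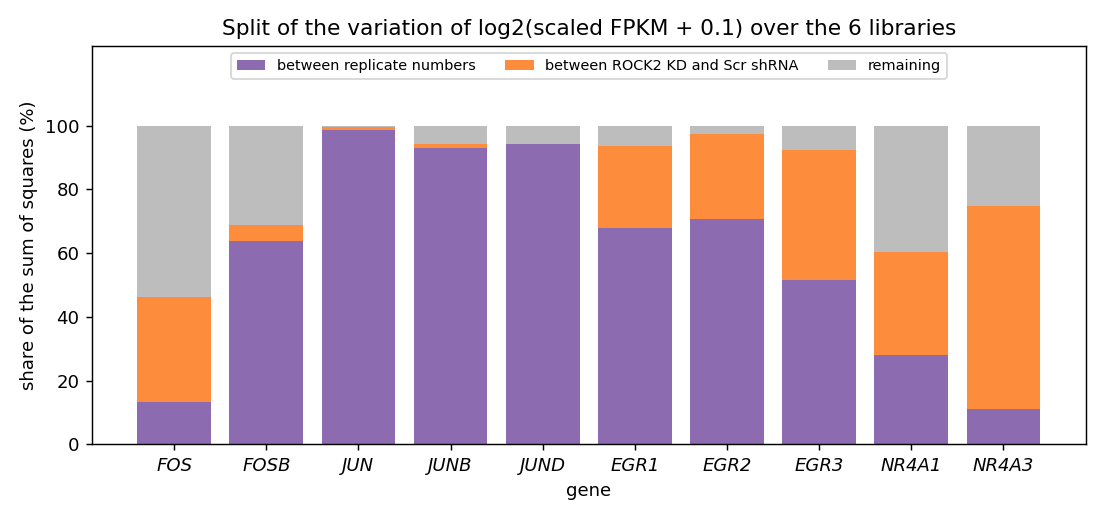
Share of the sum of squares of log2(scaled FPKM + 0.1) over the 6 libraries that lies between replicate numbers (purple), between ROCK2 KD and Scr shRNA (orange) and in the remainder (grey), in percent, for each factor. JUN, JUNB and JUND are almost all purple, and NR4A3 has the highest orange share, 63.6%. The purple share covers more levels than the orange.

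Of the other genes around these factors, the EGR corepressors were higher in ROCK2 KD in every pair, and genes that antigen receptor signalling induces were so in part, a pattern that 13.1% of tested genes had. NAB2, the EGR-induced corepressor, was at an FPKM of 4.64, 13.01 and 11.3 in ROCK2 KD and of 3.41, 5.50 and 5.89 in Scr shRNA. It was higher in all 3 pairs, with a log2 fold change of 0.76 ± 0.15 (SE, limma adjusted p = 0.791). NAB1, its relative, was higher in all 3 pairs as well, with a log2 fold change of 0.21 ± 0.11 (SE). All 6 tested genes that antigen receptor signalling is known to induce (CCL3, CCL4, CD69, CD83, CD86 and NFATC1) had log2 fold changes above 0, with a median of 0.47, and 4 had an unadjusted p under 0.05, against 3.14% of tested genes in this direction, none passing the adjusted threshold. CCL4, CD83 and CD86, 3 of the 6, were higher in all 3 pairs (13.1% of tested genes), while CCL3 and CD69 were lower in ROCK2 KD in replicate 1 and NFATC1 in replicate 3, by 0.06, 0.02 and 0.23 on the log2(scaled FPKM + 1) scale. For CD83, a surface marker of activated B cells, the FPKM was 24.8, 111 and 69.3 in ROCK2 KD and 20.8, 55.2 and 44.8 in Scr shRNA. The highest log2 fold change was that of the chemokine gene CCL4, 1.43 ± 0.38 (SE), and the lowest that of NFATC1, 0.15. CCL3 was at 1.16 and CD86 at 0.32. Near-identical copies of CCL3 and CCL4 exist, which makes the value of each copy uncertain. That genes of this list were higher was known from earlier results of these libraries, so the list adds no independent support.

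Among 27 other immediate early genes, 22 were tested, 16 with a log2 fold change above 0 and 6 below, with a median of 0.12. An unadjusted p under 0.05 was reached by 3 of the 22, all higher in ROCK2 KD, against 3.14% of tested genes in this direction. Each was higher in every pair: RGS2, a G protein regulator, at 0.64 ± 0.19 (SE), KLF10 at 0.30 and TIPARP at 0.28. RGS2 was also the highest of the list, and MYC, at -0.10 ± 0.18 (SE), the lowest. In all, 5 of the 22 (KLF10, TIPARP, RGS2, CSRNP1 and TNFAIP3) were higher in all 3 pairs, against 13.1% of tested genes, and 0 were lower in all 3. DUSP1, a MAP kinase phosphatase induced with FOS, had a mean FPKM of 1.62 ± 0.149 (SD, n = 3) under ROCK2 KD, next to 1.55 ± 0.0132 (SD, n = 3) in Scr shRNA. The close relatives FOSL1, FOSL2, EGR4 and NR4A2 were all below the filter, with no FPKM above 0.752.

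Of the factors upstream of these genes, all 12 were tested and their median log2 fold change was 0.08. ELK1, MKL2, CREB1, CREM and MEF2A, 5 of the 12, had the higher value in ROCK2 KD within each pair, against 13.1% of tested genes, and MKL1 and MEF2D were lower in all 3, against 12%. Only CREM, a CRE-binding factor and 1 of the 12, had an unadjusted p under 0.05, against 3.14% of tested genes in this direction. It was at an FPKM of 22.4, 73.1 and 72.1 in ROCK2 KD and 12.6, 62.0 and 53.0 in Scr shRNA, with a log2 fold change of 0.48 ± 0.13 (SE, limma adjusted p = 0.791). SRF had a log2 fold change of -0.10 and ELK1 of 0.13, and MEF2D, at -0.21, was the lowest. Of 12 MAPK pathway kinases, none reached an unadjusted p under 0.05, and the log2 fold changes ran from -0.09 for ARAF to 0.14 for RPS6KA5, a kinase downstream of ERK. Of 13 cytoskeletal targets of MRTF and SRF, 10 were tested, with a median of 0.02. The highest was FLNA at 0.11. Only ZYX (zyxin) had an unadjusted p under 0.05 (2.3% of tested genes in this direction), at -0.35 ± 0.11 (SE) and lower in all 3 pairs. ACTB and ACTG1, the cytoplasmic actins, were at 0.02 and 0.04. Among 11 partners of AP-1 from the bZIP class, 8 were tested with a median of -0.06, the highest being BATF at 0.33 and the lowest MAFK at -0.29. ATF4 was the 1 with an unadjusted p under 0.05 (2.3% of tested genes in this direction), at -0.25 ± 0.10 (SE).

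**Figure D5:**
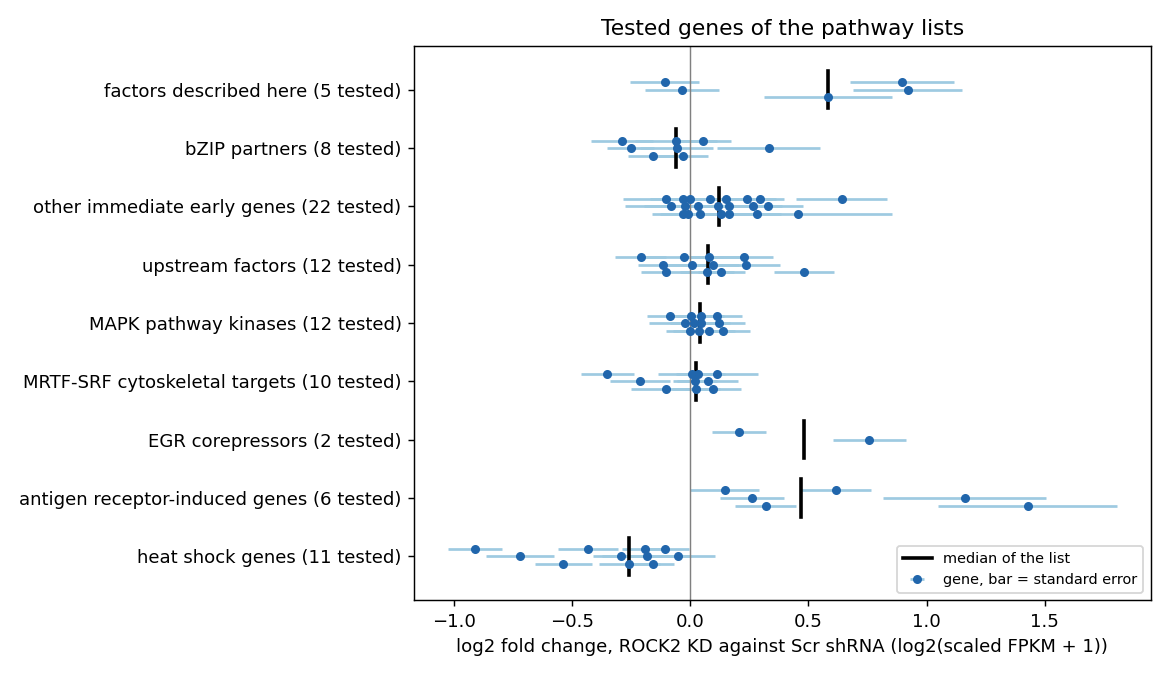
Log2 fold change on the log2(scaled FPKM + 1) scale, with its standard error, of each tested gene of the factors described here and of 8 further lists, with the median of each list as a black line. The EGR corepressors and the antigen receptor-induced genes lie above 0, the heat shock genes all below 0, and the lists of upstream factors, kinases and cytoskeletal targets lie around 0.

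Heat shock genes, which handling of cells can also induce, had log2 fold changes opposite in sign to those of the EGR and NR4A genes, none of which passed the adjusted threshold. All 11 tested of 12 had a log2 fold change below 0, with a median of -0.26, and 8 were lower in ROCK2 KD in all 3 pairs, against 12% of tested genes. HSPA8, DNAJB1 and HSP90AB1, the other 3, went both ways between pairs. HSPA1A was at an FPKM of 41.5, 53.1 and 14.3 in ROCK2 KD and of 88.4, 107 and 22.9 in Scr shRNA, a log2 fold change of -0.91 ± 0.11 (SE, limma adjusted p = 0.791). HSPA1B, HSPB1, HSP90AA1 and HSPH1 were at -0.72, -0.54, -0.43 and -0.29, and HSPA8 was the highest at -0.05. HSPA1A and HSPA1B are near-identical, which makes the value of each of them uncertain. The part of cell handling in the levels of the EGR and NR4A genes was not tested.

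The genes most like EGR1 over the 6 libraries, by Pearson's r of log2(scaled FPKM + 1) and with the factors themselves left out, were KPNA4 (r = 0.993), JAK2 (0.991), ZNF585A (0.991), PDCD1 (0.990) and UGT8 (0.988), with Spearman's rho between 0.943 and 1. In all, 67 of 10521 genes had an r above 0.95. PDCD1 had the largest difference between the groups of these 5, with a log2 fold change of 0.58, and was higher in ROCK2 KD in all 3 pairs. Among the factors, r with EGR1 was 0.97 for EGR2, 0.72 for NR4A1, -0.16 for JUNB and -0.62 for JUND. These values describe 6 libraries that share replicate numbers, and replicate 1, which was low for EGR1, weighs heavily in each.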

How the data were processed

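RNA-seq libraries were analysed from U2932 cells with ROCK2 KD or Scr shRNA, 3 in each group. Groups and replicate numbers come from the titles in the labels, which do not say whether replicates were separate cultures, so p values measure the spread between these libraries. The authors aligned 50-base paired reads of Nextera libraries to hg19 with STAR and computed FPKM with Cufflinks, and the deposited FPKM of 20667 gene symbols were used. The gene annotation and any use of strand are not given in the sources used here.

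Libraries were brought to a common scale with a trimmed mean of log ratios (0.3 of ratios and 0.05 of levels trimmed). Genes that reached an FPKM of 1 in 3 or more libraries were retained, and log2(scaled FPKM + 1) was fitted with limma 3.58.1 in R 4.3.3 (replicate number as block, mean-variance trend, Benjamini-Hochberg over all 10526 genes). Fold changes on this scale understate changes of low genes. The fit was tested on simulated data. The study corrected a replicate-based batch effect. After subtraction of the group means, libraries with the same number correlated over genes at r = 0.855, 0.785 and 0.742, and libraries with other numbers at -0.649 to 0.0557, so the numbers pair the libraries. Positions come from GENCODE 44 on GRCh37. Plots used Python 3.11.15 and matplotlib 3.10.9. The members and lists were chosen with earlier results of these data known. Named genes are the 10 factors, ROCK1, ROCK2, the list genes with an unadjusted p under 0.05 or at the ends of a list, and the 5 genes most like EGR1. Marker genes, CD69, FOSL1, FOSL2, EGR4, NR4A2, MKL1, MKL2, CREB1, MEF2A, DUSP1, ATF3, SRF, ELK1, CSRNP1, TNFAIP3, NAB1, DNAJB1, HSP90AB1, ACTB and ACTG1 were named after their values were seen. A gene of the marker list and one of the kinase list are not reported here.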

Additional observations from a re-analysis of the deposited data

How the results depend on the processing

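None of JUNB, JUND, EGR1, EGR2 and NR4A1 passed the adjusted threshold under any alternative in which it was tested, nor did FOS, FOSB, JUN, EGR3 and NR4A3 in the fits without a filter. EGR1, EGR2 and NR4A1 had a log2 fold change above 0 in each setting that could fit them. With ComBat on the replicate number followed by limma without the block, the adjusted threshold of 0.05 was passed by 296 genes and the unadjusted by 2126, against 0 and 573, and the adjusted p was 0.0721 for EGR1 and 0.0695 for EGR2. Without the replicate block, 26 genes passed the unadjusted threshold and 0 the adjusted, and the log2 fold change of EGR1 had a standard error of 0.54. With each replicate left out in turn, between 0 and 4 genes passed the adjusted threshold in limma (CCL3, CCL4L1 and CCL4L2 without replicate 1, SNORA4, SNORA5A, SNORA34 and SNORA57 without replicate 3), and between 398 and 876 the unadjusted. The number of factors higher in all remaining pairs lay between 5 and 8, with FOS, FOSB and JUND joining without replicate 1, and the number lower between 1 and 2, JUNB joining without replicate 3. JUND turned to a log2 fold change of 0.19 without replicate 1, and JUNB to 0.082 without replicate 2 (ranges over the omitted replicates -0.18 to 0.19 and -0.25 to 0.082). The median over the factors tested ranged from 0.12 to 0.84 with a replicate left out. It was -0.03 where an FPKM of at least 1 was required in every library, since EGR1 and EGR2 then could not be tested. The cause of these changes was not tested beyond the number of libraries or genes. The pseudocount of 0.1 without a filter was chosen after seeing the data. FPKM do not give the reads behind a value, which limits the low values of FOS, FOSB, EGR3 and NR4A3, and those of EGR2 in replicate 1.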
